A study of Homo sapiens with 32 samples.

Results

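The comparison described here is the earliest response of wild-type (WT) cells to transforming growth factor β1 (TGFβ1), measured 6 h after the cytokine was added and set against solvent. It rests on 8 of the 32 RNA sequencing libraries of the series, 4 in each group. The genotype and treatment on the labels set which libraries these are, and the comparison was chosen with earlier results of these data known. The cells were MCF10A, a non-tumorigenic human mammary epithelial line, as cell clones 27 and 2, both labelled JUNB WT. The JUNB-edited clones 1 and 65 (mut), single-cell clones with CRISPR/Cas9 deletions in JUNB, enter only where the same contrast is set beside WT. The medium of all groups held horse serum, EGF, hydrocortisone, cholera toxin and insulin. Treated cells received TGFβ1 at 5 ng/ml for 6 h, and solvent cells received its vehicle (bovine serum albumin in phosphate-buffered saline). Each clone was sampled in 2 replications. A clone and a replication together form a series, so the solvent and the treated library of 1 series are a pair (27-1, 27-2, 2-1 and 2-2, the clone before the replication number). Values for single libraries are given in that order throughout, and ± after a log2 fold change is its standard error (SE).

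What the design can carry is limited in several ways. Each genotype is represented by 2 cell clones. The replications, which the study describes as independent biological ones, are repeats of those same clones, so p-values measure the spread among libraries of these clones. For the comparison of 6 h with solvent, that spread was estimated over all 32 libraries of the series. For other genes edited in the study, control clones had also gone through CRISPR/Cas9 and cloning, which is not stated for clones 27 and 2. The solvent libraries carry the label time 0, whereas the study's description gives 72 h of solvent and a common harvest time for every sample. No inhibitor of protein synthesis was used, so transcripts regulated by the receptor signal itself and transcripts regulated by its early products cannot be told apart either. In bulk RNA, fewer cells of a kind and less RNA per cell also cannot be told apart.

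TGFβ1 binds a pair of transmembrane serine/threonine kinase receptors, which phosphorylate SMAD2 and SMAD3. These join SMAD4, move into the nucleus and act at target genes together with other transcription factors, among them activator protein 1 (AP-1), a dimer of JUN and FOS family proteins. In epithelial cells the cytokine is known for arresting proliferation and, over days, for inducing the epithelial-mesenchymal transition (EMT), in which junctions are lost and matrix and migratory genes are gained. The pathway also switches on its own inhibitors, such as SMAD7 and SKIL.

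Library totals of the 8 libraries lay between 39702412 and 52150813 counts, and a floor of 3 counts corresponded to 0.0575 to 0.0756 counts per 1e6 counts of the library (CPM). The labelled cell type was checked against marker genes. All 10 basal mammary epithelial markers were expressed, with KRT5 at a mean of 6080 CPM over the 8 libraries. Of 6 luminal hormone-receptor markers, ESR1 had a mean of 0.803 CPM, GATA3 of 30.5 CPM and FOXA1 of 11.4 CPM, and PGR and TFF1 were not analysed here. The summed level of the luminal list was 39.7 to 49.6 CPM in solvent and 35.6 to 42.8 CPM at 6 h. Of 9 fibroblast markers, THY1, COL1A2 and COL3A1 had means of 0.0158, 0.0116 and 0.00529 CPM, each under the floor of a single library, and LUM was not analysed here. DCN, PDGFRA and PDGFRB had means of 9.99, 0.406 and 0.366 CPM, above that floor. Of the 5 tested members, 3 rose at 6 h (COL1A1, FAP and PDGFRA). The summed level of this list was 43.2 to 67.5 CPM in solvent and 123 to 148 CPM at 6 h, and COL1A1 and FAP held most of it. Of 8 immune and endothelial markers, 4 that define those cells (PTPRC, CD3E, CD79A and VWF) had means under the floor and PECAM1 and CDH5 were not analysed here. That list summed to 23.1 to 32.1 CPM in solvent and 18.8 to 23.6 CPM at 6 h, nearly all of it from CD14 and CD68. Series 27-2 stood apart from the other 3 series in both groups. Its solvent library had the lowest CDH1 (224 against 335 to 453 CPM) and the highest FN1 (1548 against 329 to 580.1 CPM), POSTN (19.5 against 0.0504 to 0.587 CPM) and ZEB1 (15.5 against 7.79 to 8.16 CPM). Without this series, in both groups, 2130 genes were called at 6 h, 665 higher and 1465 lower.

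By 6 h, 762 of 14865 genes tested had risen and 1764 had fallen in WT cells (limma-voom, Benjamini-Hochberg adjusted p under 0.05), together 17.0% of the genes tested, 5.13% higher and 11.9% lower. These shares are the background for the list counts given below. The rises were the larger changes. Among the differentially expressed genes (DEGs), 208 rose and 103 fell by at least 1 on the log2 scale, and 67 rose but only 12 fell by at least 2. The median log2 fold change was 0.55 over the genes that rose, -0.34 over those that fell and -0.08 over all genes tested. Of the 2526 DEGs, 740 of the 762 rises and 1687 of the 1764 falls had the same sign in all 4 series. The calls rest on these same libraries, which favours such agreement. The libraries of the groups did not overlap for 1969 DEGs, and they did not overlap for 18.2% of all genes tested.

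The split between rises and falls depended on the scaling. With trimmed mean of M-values (TMM) factors, 1042 genes rose and 919 fell, 53.1% of the calls being higher in place of 30.2%, while the median of all genes moved from -0.08 to -0.00. All 762 rises were also called with TMM factors, and 919 of the 1764 falls were. With the series as a block, which compares each treated library with its own solvent library, 3844 genes were called, 1157 higher and 2687 lower, and these included 759 of the 762 rises and 1763 of the 1764 falls.

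**Figure D1:**
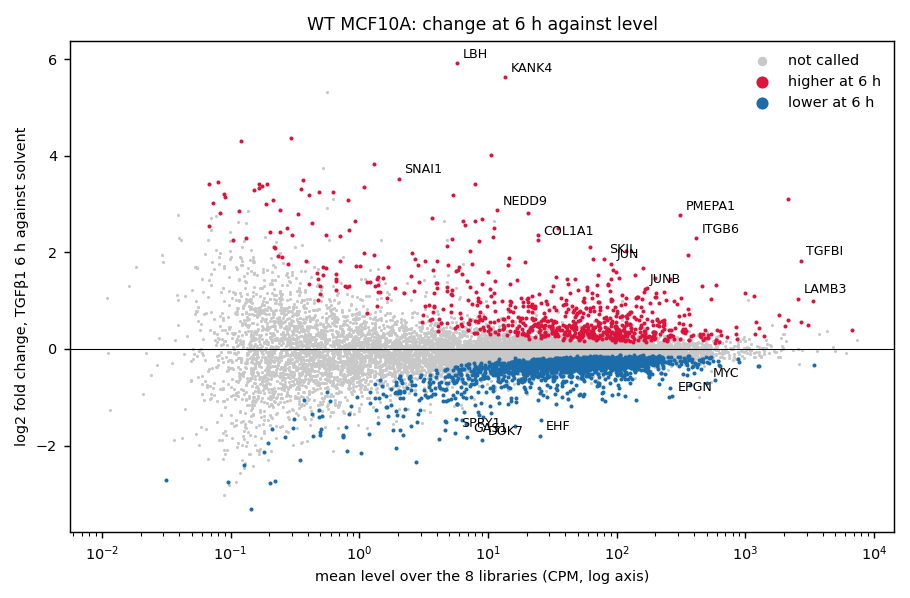
Mean level of each of the 14865 genes over the 8 libraries (CPM, log axis) against its log2 fold change at 6 h; red points rose, blue points fell and grey points were not called by limma-voom at an adjusted p under 0.05. The largest rises (LBH, KANK4) lie above 5 on the log2 scale, while no named fall passes -2, and PMEPA1, ITGB6 and TGFBI combine a large rise with a high level.

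JUNB, the gene edited in the other clones and a subunit of AP-1, was a DEG itself. JUNB (ENSG00000171223, chromosome 19, 12791486 to 12793315, plus strand; GRCh38) measured 89.7, 94, 117 and 90.0 CPM in solvent and 217, 187, 251 and 276 CPM at 6 h. Every treated library lay above every solvent library, and the log2 fold change was 1.24 ± 0.33 (SE, limma-voom adjusted p = 0.00901). It overlaps HOOK2 on the opposite strand, and the library kit keeps no strand. Summing the 2 replications of a clone gave an adjusted p of 0.0964 for the same change. JUN, the founding member of the family, rose more evenly, from 45.5, 45.6, 42.4 and 32.4 CPM in solvent to 148, 127, 152 and 137 CPM at 6 h. The groups were far apart, and the log2 fold change was 1.77 ± 0.17 (SE, limma-voom adjusted p = 4.66e-08).

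Of the 19 tested genes of the AP-1 and small MAF family, 4 rose and 0 fell, the other risen members being MAF, a large MAF protein, with 1.38, and MAFF, a small one, with 0.41. The list's median was 0.01, against -0.08 over all genes. None of the tested FOS family members was called, FOS having a log2 fold change of 0.01, FOSL1 -0.18 and FOSL2 -0.03 (adjusted p = 0.969, 0.363 and 0.932), and JUND had -0.01 (adjusted p = 0.954). These 4 genes were picked for mention after their values were seen. With the series block 2 members fell, and without series 27-2 1 did.

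The inhibitors of the pathway formed 1 of the lists in which most members rose. Of 13 tested negative feedback genes, 7 rose and 2 fell, with a median log2 fold change of 0.60. PMEPA1, a membrane protein that keeps SMADs from the receptor, measured 80.9, 135, 72.3 and 48.4 CPM in solvent and 488, 557, 538 and 565 CPM at 6 h. The treated libraries were tightly grouped while the solvent libraries were spread more widely, series 27-2 being highest, and the change was 2.77 ± 0.25 (SE, limma-voom adjusted p = 3.03e-08). SKIL (SnoN), a corepressor that binds SMADs, measured 35.8, 47.5, 29 and 26.6 CPM in solvent and 110.4, 109.9, 141 and 134 CPM at 6 h, a change of 1.87 ± 0.18 (SE, limma-voom adjusted p = 7.62e-08). SMAD7, the inhibitory SMAD that competes for the receptor, measured 11.2, 14.4, 10.9 and 11.3 CPM in solvent and 23.2, 24.1, 26.3 and 24.4 CPM at 6 h. Its groups did not overlap, and its change of 1.05 ± 0.10 (adjusted p = 4.66e-08) was seen in all 4 series. The ubiquitin ligases SMURF1 and SMURF2, which act on receptors and SMADs, rose by 0.60 and 0.61. Solvent and treated libraries of SMURF2 overlapped (112, 165, 103 and 97.5 CPM against 139, 216, 179 and 186 CPM), series 27-2 being the highest of both groups. The corepressors SKI and TGIF1 completed the rises (0.38 and 0.31), whereas TGIF2 fell by 0.57 and the ligase NEDD4L fell by 0.57 (adjusted p = 0.000125 and 0.0016); these 4 were named to complete the count.

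The 250 bases upstream of the RefSeq start (GRCh38.p14) of feedback genes and of JUNB are shown because these genes rose together. SMAD7 lies at chr18:48950966-48951215, minus strand, PMEPA1 at chr20:57711473-57711722, minus strand, JUNB at chr19:12791236-12791485, plus strand and SKIL at chr3:170357465-170357714, plus strand. They were searched on both strands for GTCTAGAC (a palindrome of the SMAD box), CAGACA (a shorter SMAD element), TGANTCA (an AP-1 element) and CACCTG (an E-box), none of which contains another, although GTCTAGAC and CAGACA share 4 letters. No match was found in these 4 windows, which says only that these letters are not there, so all bases stand in lower case.
SMAD7: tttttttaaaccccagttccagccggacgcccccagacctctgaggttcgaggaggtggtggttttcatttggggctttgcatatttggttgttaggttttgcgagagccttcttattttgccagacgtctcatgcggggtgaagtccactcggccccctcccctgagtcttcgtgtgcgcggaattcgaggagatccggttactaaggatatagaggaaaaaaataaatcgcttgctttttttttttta
PMEPA1: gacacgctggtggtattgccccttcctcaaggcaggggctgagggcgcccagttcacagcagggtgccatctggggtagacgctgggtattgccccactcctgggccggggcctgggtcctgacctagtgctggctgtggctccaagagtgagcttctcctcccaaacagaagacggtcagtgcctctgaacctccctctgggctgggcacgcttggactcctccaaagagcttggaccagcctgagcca
JUNB: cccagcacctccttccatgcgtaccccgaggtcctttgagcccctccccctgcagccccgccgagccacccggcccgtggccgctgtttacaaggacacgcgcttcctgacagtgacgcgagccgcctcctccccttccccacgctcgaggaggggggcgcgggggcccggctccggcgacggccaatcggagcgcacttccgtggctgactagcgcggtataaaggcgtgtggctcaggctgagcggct
SKIL: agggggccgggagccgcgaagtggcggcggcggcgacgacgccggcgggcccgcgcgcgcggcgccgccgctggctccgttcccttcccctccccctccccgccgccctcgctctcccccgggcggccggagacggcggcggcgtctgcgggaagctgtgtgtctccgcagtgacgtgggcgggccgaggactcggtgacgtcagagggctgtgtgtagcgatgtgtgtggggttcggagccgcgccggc

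The receptors and SMADs changed less and in both directions. Of 16 tested, 3 rose and 4 fell, beside 5.13% higher and 11.9% lower of all genes tested. The median was -0.10, against -0.08 for all genes. TGFBR3 (betaglycan), a co-receptor that presents ligand, measured 34.2, 25.8, 30.2 and 43.1 CPM in solvent and 20.2, 14.7, 14.3 and 14.5 CPM at 6 h. It was lower in each series, 27-1 keeping the highest treated value, and fell by 1.06 on the log2 scale (-1.06 ± 0.16, adjusted p = 4.1e-05). The type II activin receptor ACVR2B fell by 0.62 and SMAD9, a SMAD of the bone morphogenetic protein (BMP) branch, fell by 0.45. SMAD1, of the same branch, fell by 0.24 and was named to complete the count. The type I receptor TGFBR1 rose by 0.33, and the BMP receptors BMPR2 and ACVR1 by 0.56 and 0.46 (limma-voom adjusted p = 0.0412, 0.000589 and 0.000616). TGFBR1 too was named to complete the count. Among genes without a call, the ligand-binding receptor TGFBR2 had -0.23 ± 0.10, SMAD3 0.32 ± 0.13 and SMAD4 -0.06 ± 0.05; these were picked for their place in the pathway after their values were seen. With TMM factors 4 members rose and 2 fell.

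Of 18 tested ligands, latency proteins and antagonists, 4 rose and 1 fell, with a median of 0.24. LTBP2, a latent TGFβ binding protein of the matrix, measured 174, 126, 142 and 117 CPM in solvent and 411, 319, 379 and 403 CPM at 6 h, a rise of 1.44 ± 0.18 (SE, limma-voom adjusted p = 1.64e-06). FSTL3, a secreted activin antagonist, rose by 1.08 ± 0.15, and the ligand gene TGFB1 itself by 0.39 ± 0.10 (78.5, 100.1, 93.2 and 88.7 CPM in solvent, 107, 131, 111 and 123 CPM at 6 h, adjusted p = 0.00619). TGFB1 overlaps HNRNPUL1 on the opposite strand. BMP1, the procollagen C-proteinase, rose by 0.29 and the ligand TGFB3 fell by 0.56, the latter losing its call with TMM factors (adjusted p = 0.0949).

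Among early transcription factors, 7 of 24 tested KLF, EGR and related genes rose and 3 fell, with a median of 0.12. BHLHE40, a circadian and stress-responsive repressor, rose from 136, 110.4, 146 and 115 CPM to 260.5, 221, 307 and 292 CPM, a change of 1.08 ± 0.12 (SE, limma-voom adjusted p = 6.31e-07). KLF7 rose by 0.86 and BHLHE41 by 0.62. MYC, the growth-promoting factor whose repression is a textbook step of TGFβ-induced arrest, measured 609.5, 544, 633 and 710.1 CPM in solvent and 421, 392, 364 and 361 CPM at 6 h. The highest treated library lay below the lowest solvent library, and MYC fell by 0.69 (-0.69 ± 0.08, adjusted p = 9.66e-07). NFIL3, a bZIP repressor, fell by 0.56. EGR1, the serum-responsive zinc finger factor, had -0.13 ± 0.17 (adjusted p = 0.676), a value named after it was seen.

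Of 15 tested ID and NOTCH pathway genes, 3 rose and 2 fell, beside 5.13% higher and 11.9% lower of all genes tested. The median was -0.01 with library sizes but 0.06 with TMM factors. ID3, an inhibitor of basic helix-loop-helix factors, rose by 0.87, LFNG, a glycosyltransferase that modifies NOTCH, by 1.15, and the ligand JAG1 by 0.88. JAG1 measured 97.8, 110.0, 108 and 115 CPM in solvent and 144, 186, 225 and 252 CPM at 6 h, series 2-1 and 2-2 reaching the highest levels. The other ligand JAG2 and the receptor NOTCH1 fell, with log2 fold changes of -0.66 and -0.49 (adjusted p = 6.5e-05 and 0.000712).

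Of the 14 tested EMT transcription factors, 4 rose and 1 fell, with a median of 0.34. SNAI1 (Snail), a repressor of E-cadherin, had the largest fold change of the list at a low level, 0.210, 0.778, 0.225 and 0.227 CPM in solvent and 5.20, 3.55, 3.31 and 2.72 CPM at 6 h. All treated values exceeded all solvent values, and the change was 3.53 ± 0.48 (SE, limma-voom adjusted p = 8.25e-06). SNAI2 (Slug) was more abundant in both groups, at 88.3, 126, 97 and 96.2 CPM in solvent and 196, 246, 254 and 276 CPM at 6 h, and rose by 1.26 ± 0.15 (adjusted p = 1.11e-06). SOX4 measured 49.4, 50.4, 52.6 and 41.7 CPM in solvent and 105, 99.6, 152 and 138 CPM at 6 h, clone 2 being higher than clone 27 after treatment, and rose by 1.33 ± 0.13 (adjusted p = 4.66e-08). FOXC2 rose by 0.50 and FOXC1 fell by 0.29; neither was called without series 27-2.

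The ZEB and TWIST genes gave no call. ZEB1 measured 7.93, 15.5, 7.79 and 8.16 CPM in solvent and 6.23, 14.6, 9.02 and 9.26 CPM at 6 h, with series 27-2 apart in both groups, and its log2 fold change was 0.01 ± 0.24 (adjusted p = 0.98), the sign turning to -0.01 with the series block. ZEB2 had 0.30 ± 0.28, TWIST1 -0.30 ± 0.12 and TWIST2 0.26 ± 0.12 (adjusted p = 0.529, 0.0857 and 0.131). With the series block TWIST1 was called as lower and TWIST2 as higher (adjusted p = 0.0394 and 0.00333), and 7 members of the list rose and 2 fell.

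**Figure D2:**
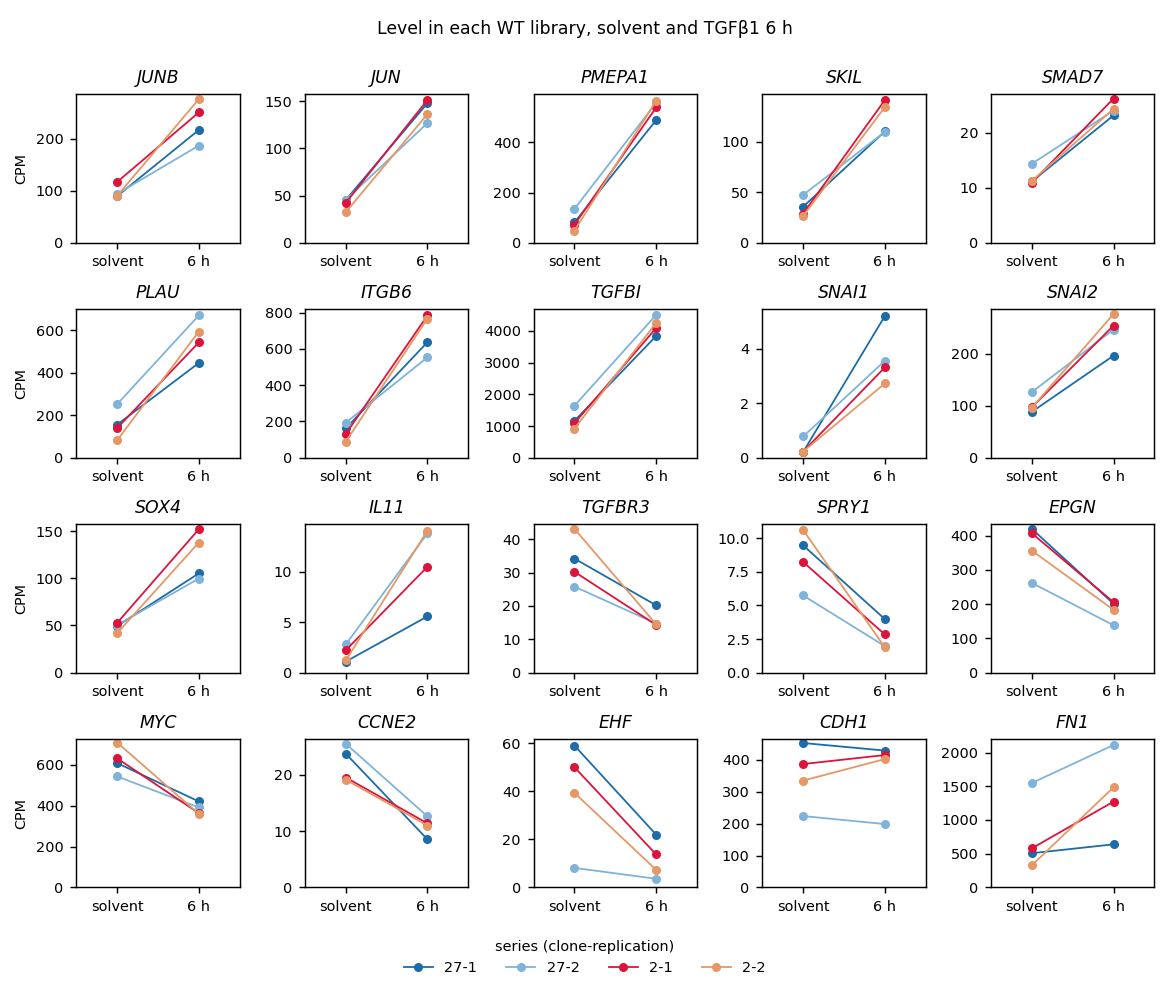
Level (CPM) of 20 genes in the 8 WT libraries, a line joining the solvent and the 6 h library of each series. Solvent and treated libraries are separate for JUN, PMEPA1, SKIL, SMAD7, PLAU, SNAI2, SOX4, EPGN, MYC and CCNE2, while CDH1 and FN1 overlap and series 27-2 lies apart in both.

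Of 32 tested epithelial regulators and junction genes, 0 rose and 6 fell, beside 11.9% lower of all genes tested, with a median of -0.17 (-0.09 with TMM factors). EHF, an epithelial ETS factor, measured 59, 8.15, 50.0 and 39.4 CPM in solvent and 22, 3.62, 13.7 and 7.31 CPM at 6 h. It was lower in every series although series 27-2 started near the treated level of the others, and it fell by 1.80 on the log2 scale (adjusted p = 0.024). TJP3, the tight junction protein ZO-3, fell by 1.44, GRHL3, an epidermal differentiation factor, fell by 0.94, OVOL2, a repressor of EMT genes, fell by 0.75, and ESRP2, an epithelial splicing regulator, fell by 0.46. CDH1 (E-cadherin) measured 453, 224, 387 and 335 CPM in solvent and 429, 199, 415 and 403 CPM at 6 h, with a change of 0.03 ± 0.25 (adjusted p = 0.957). Series 2-1 and 2-2 moved up and 27-1 and 27-2 down, and the sign turned in 5 of the alternatives tried. EPCAM, an epithelial adhesion molecule, measured 54.2, 33.5, 51.6 and 46.9 CPM in solvent and 55.6, 27.5, 35.5 and 26.2 CPM at 6 h, with -0.42 ± 0.20 (adjusted p = 0.152), and was called as lower with the series block (adjusted p = 0.0367). With that block 4 members of the list rose and 15 fell.

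Of 25 tested mesenchymal and matrix genes, 12 rose and 0 fell, with a median of 1.00, against -0.08 for all genes. TGFBI, a secreted matrix protein, measured 1164, 1641, 1091 and 918 CPM in solvent and 3839.5, 4506, 4092 and 4256 CPM at 6 h, a rise of 1.82 ± 0.24 (SE, limma-voom adjusted p = 3.83e-06). COL1A1 (type I collagen) measured 10.3, 5.59, 8.96 and 8.41 CPM in solvent and 47.3, 26.5, 47.2 and 40.4 CPM at 6 h and rose by 2.25 ± 0.26 (adjusted p = 6.37e-07), series 27-2 being lowest in both groups. COL4A1, a basement membrane collagen, rose by 1.47, TNC (tenascin C) by 1.46, CCN2 (connective tissue growth factor) by 1.32, and LAMB3, a laminin chain of the hemidesmosome, by 1.04. FN1 (fibronectin) was not called. It measured 508, 1548, 580.1 and 329 CPM in solvent and 639, 2112, 1273 and 1484 CPM at 6 h, so that the solvent value of series 27-2 exceeded every other treated value except its own, and the change was 1.02 ± 0.45 (adjusted p = 0.125). Without the solvent library of series 27-2 FN1 was called, with a change of 1.46 (limma-voom adjusted p = 0.0225). FN1 was also called as higher with the series block and TMM factors, and with the block on the 8 libraries alone. It was not called with the block over all libraries and library sizes, nor without series 27-2 in both groups. POSTN (periostin) was 0.587, 19.5, 0.495 and 0.0504 CPM in solvent and 2.56, 62, 1.82 and 1.73 CPM at 6 h, with 2.66 ± 2.49 (limma-voom adjusted p = 0.529). Among the alternatives POSTN was called as higher only with the series block on the 8 libraries alone. VIM (vimentin) and CDH2 (N-cadherin) had 0.21 ± 0.12 and 0.47 ± 0.17 (adjusted p = 0.273 and 0.052), and both were called with the series block (adjusted p = 0.0354 and 0.00597).

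Proteolysis genes were changed early as well. PLAU (urokinase), a protease that activates plasminogen, measured 156, 252, 139 and 81.7 CPM in solvent and 446, 669.8, 543 and 594 CPM at 6 h. Every treated library lay above every solvent library, series 27-2 being highest in both groups, and the rise was 1.94 ± 0.24 (adjusted p = 2.5e-06). The serine protease inhibitor SERPINE2 and the urokinase receptor PLAUR rose by 1.47 and 0.61. Of 22 tested crosslinking and matrix protease genes, 12 rose and 1 fell, with a median of 0.61. ADAM19 measured 42.7, 95.2, 41 and 18.6 CPM in solvent and 84.8, 268, 199.8 and 192 CPM at 6 h and rose by 2.04 ± 0.41 (adjusted p = 0.000745), its 27-1 treated library lying below the 27-2 solvent library. ADAMTS6 rose by 1.70, the gelatinases MMP9 and MMP2 by 1.40 and 1.29, and ADAMTS1 fell by 1.20. MMP2 was not called without series 27-2.

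Of 12 tested integrin subunits, 7 rose and 0 fell, with a median of 0.53. ITGB6, whose dimer with ITGAV activates latent TGFβ, measured 161, 193, 132 and 88.6 CPM in solvent and 637, 554, 784 and 767 CPM at 6 h, a change of 2.30 ± 0.22 (SE, limma-voom adjusted p = 4.5e-08). ITGA2 (a collagen receptor chain) measured 267, 264, 277 and 233 CPM in solvent and 483, 493, 824 and 853 CPM at 6 h, clone 2 reaching higher levels than clone 27, and rose by 1.30 ± 0.16. ITGA5 (a fibronectin receptor chain) rose by 1.07, ITGB4 (of the hemidesmosome) by 0.60 and ITGAV by 0.53. Of 23 tested actin and focal adhesion genes, 11 rose and 0 fell, with a median of 0.31. NEDD9, a focal adhesion scaffold, measured 3.44, 4.77, 1.98 and 1.94 CPM in solvent and 18.1, 20.6, 22.3 and 21.8 CPM at 6 h and rose by 2.87 ± 0.47 (adjusted p = 9.26e-05). PDLIM7, TNS1 (tensin 1), DAAM1 (a formin) and FERMT2 (kindlin-2) rose by 1.15, 1.03, 0.99 and 0.71.

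The 20 genes with the largest rises (called, at least 5 CPM on average and of 1 sign in all series) ranged from 2.25 (COL1A1) to 5.92 (LBH) on the log2 scale. LBH, a transcriptional cofactor (ENSG00000213626, chromosome 2, 30231534 to 30323730, plus strand), measured 0.713, 0.552, 0.180 and 0 CPM in solvent and 11.1, 11.3, 11.6 and 10.9 CPM at 6 h. It was close to the floor in solvent and almost the same in the 4 treated libraries, a change of 5.92 ± 0.95 (SE, limma-voom adjusted p = 7.01e-05). KANK4, an adaptor of the KANK family at the cytoskeleton (ENSG00000132854, chromosome 1, 62236165 to 62319434, minus strand), measured 0.881, 0.401, 0.856 and 0.202 CPM in solvent and 24, 19, 32.2 and 31.3 CPM at 6 h, a change of 5.62 ± 0.83 (SE, limma-voom adjusted p = 2.51e-05). Low solvent values make the size of these folds imprecise.

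RDH16, a retinol dehydrogenase, measured 1.55, 0.878, 1.55 and 1.11 CPM in solvent and 20.9, 8.23, 15.8 and 13 CPM at 6 h and rose by 3.42 ± 0.54. ADAMTS15, a protease of proteoglycans, rose by 3.19 and SEMA7A, a membrane-anchored semaphorin, by 2.82. IL11, a cytokine of the interleukin 6 family, measured 1.09, 2.78, 2.21 and 1.21 CPM in solvent and 5.56, 13.8, 10.5 and 14.1 CPM at 6 h and rose by 2.64 ± 0.52 (adjusted p = 0.000658). It was the only member called among 20 tested chemokines and inflammatory cytokines by limma-voom with library sizes (1 rose, 0 fell). CXCL1, a neutrophil chemokine, had 0.13 ± 0.23 (adjusted p = 0.775).

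WNT9A measured 12.1, 13.2, 13.2 and 5.26 CPM in solvent and 47.7, 58.9, 57.9 and 73.3 CPM at 6 h, its 2-2 solvent library lying apart from the other 3, and rose by 2.50 ± 0.22 (adjusted p = 3.03e-08). HMOX1 (heme oxygenase 1) rose by 2.29 ± 0.39, ALOX5AP (a protein of leukotriene synthesis) by 2.56 ± 0.44 and DCLK1 (a microtubule-associated kinase) by 2.31 ± 0.34. The kinase STK32A rose by 2.70, the scaffold IQGAP2 by 2.65 and SCG5, a chaperone of prohormone processing, by 2.50. IVL (involucrin), a protein of the cornified envelope, measured 14.2, 4.97, 9.84 and 2.47 CPM in solvent and 71.3, 17.8, 52 and 23.1 CPM at 6 h. Both groups varied widely, series 27-1 and 2-1 being the high ones, but they did not overlap, and the fold change was 2.36 ± 0.63. IQGAP2 overlaps F2RL2 on the opposite strand. Over the 20 genes the groups did not overlap for 19, the exception being SCG5. Beside this stand 18.2% of all genes tested and 1969 of the 2526 DEGs. These 20 genes were picked as called, large and of 1 sign, which favours separation.

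Chosen by the same rule (called, at least 5 CPM on average and of 1 sign in all series), the 15 largest falls were smaller, from -1.18 (IL1RN) to -1.89 (DOK7). The 12 called falls of at least 2 on the log2 scale lie outside this choice. DOK7, an adaptor of the receptor kinase MuSK (ENSG00000175920, chromosome 4, 3463306 to 3501473, plus strand), measured 11.3, 13.4, 15.5 and 16.5 CPM in solvent and 4.21, 4.93, 2.66 and 3.53 CPM at 6 h, a change of -1.89 ± 0.26 (SE, limma-voom adjusted p = 1.01e-05). GAS1, a membrane protein that binds Hedgehog, measured 10.9, 8.63, 10.4 and 13.1 CPM in solvent and 4.30, 3.17, 2.74 and 2.21 CPM at 6 h and fell by 1.83 (adjusted p = 0.000127). SPRY1 (Sprouty 1), an inhibitor of receptor tyrosine kinase signalling, measured 9.48, 5.74, 8.24 and 10.6 CPM in solvent and 3.98, 1.97, 2.84 and 1.88 CPM at 6 h and fell by 1.74 (adjusted p = 5.29e-06). The transporter genes SLCO4A1 and SLC27A2 fell (log2 fold changes of -1.48 and -1.40), SYBU, a cargo adaptor on microtubules, fell by 1.60, and MAPK4, an atypical kinase, fell by 1.48. RIPOR2, CD14 and PLLP fell (log2 fold changes of -1.38, -1.33 and -1.31), PLD6, a mitochondrial phospholipase, fell by 1.30, and IL1RN, the interleukin 1 receptor antagonist, fell by 1.18. The groups did not overlap for 8 of the 15, beside 18.2% of all genes tested and 1969 of the 2526 DEGs. For CD14 the treated 27-1 library (17.4, 9.98, 13 and 19 CPM in solvent, 11.4, 4.93, 3.61 and 5.25 CPM at 6 h) lay above the 27-2 solvent library.

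SPRY1 belonged to a list of epidermal growth factor (EGF) receptor ligands and feedback inhibitors of the kinase ERK, of which 1 of 20 tested rose and 7 fell, with a median of -0.24. EPGN (epigen), an EGF receptor ligand, measured 419.9, 262, 407 and 356 CPM in solvent and 201, 138, 206 and 183 CPM at 6 h. Each treated library lay below every solvent library, and the change was -0.98 ± 0.17 (SE, limma-voom adjusted p = 0.000128). DUSP5, a phosphatase that acts on ERK, fell by 0.91, SPRY2 fell by 0.63 and LRIG1, a negative regulator of the EGF receptor, fell by 0.57. The receptor EGFR had 0.27 ± 0.13 (adjusted p = 0.158) and was picked after its value was seen. With TMM factors 1 rose and 5 fell.

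Of 23 tested growth factors and WNT genes, 4 rose and 2 fell, beside 5.13% higher and 11.9% lower of all genes tested. Beside WNT9A, WNT7A rose by 1.24, WNT7B by 0.93 and IGF1R, the insulin-like growth factor receptor, by 0.73 ± 0.07 (adjusted p = 3.03e-08). IGF1R measured 94.7, 95.9, 90.1 and 91.1 CPM in solvent and 147, 160.3, 159 and 149 CPM at 6 h, and each of its treated libraries lay above each solvent library. LIF, a cytokine, fell by 0.71 with an adjusted p of 0.0483, and lost its call in 13 of the 20 alternatives. With the series block 8 members rose and 3 fell.

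Genes of the G1 and S phases were among those that fell. Of 18 tested G1 regulators, 3 rose and 9 fell, with a median of -0.28. The E2F2 transcription factor measured 12, 7.80, 9.41 and 10.8 CPM in solvent and 4.65, 3.53, 3.61 and 2.32 CPM at 6 h and fell by 1.55 (adjusted p = 0.000122). CCNE2 (cyclin E2) measured 23.7, 25.5, 19.5 and 19.1 CPM in solvent and 8.52, 12.6, 11.4 and 11 CPM at 6 h and fell by 1.01 (adjusted p = 0.000388). CDC25A, the phosphatase that activates CDK2, and E2F1 fell (log2 fold changes of -0.67 and -0.68), while GADD45A, a stress-induced growth arrest gene, rose by 0.80. CDKN1A (p21) rose by 0.22 ± 0.08 (adjusted p = 0.0376) and was picked after its value was seen. CDKN2A and CDKN2B were not analysed here. With TMM factors 3 rose and 6 fell, and without series 27-2 1 rose and 7 fell.

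All 17 tested DNA replication genes had a negative change, 9 of them called, with a median of -0.44 (-0.36 with TMM factors). Beside this, 9612 of all 14865 genes tested had a negative change with library sizes. RRM2 (a ribonucleotide reductase subunit) measured 161, 176, 135 and 140.2 CPM in solvent and 112, 119.7, 91.7 and 88.3 CPM at 6 h, each treated library lying below each solvent library, and fell by 0.58 (adjusted p = 0.0141). CDC6, MCM6, MCM10 and GINS2, which load or accompany the replicative helicase, fell (log2 fold changes of -0.61, -0.55, -0.67 and -0.51). With the series block 16 of the 17 were called as lower, and with TMM factors 6 were. Mitosis genes showed smaller values. All 16 were negative (range -0.31 to -0.07, median -0.19), 0 were called with library sizes and 4 with the series block. With TMM factors the median of these 16 was -0.12 and 0 were called, and 1 was called with the block and TMM factors.

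Most genes of ribosome biogenesis fell. Of 15 tested biogenesis factors, 0 rose and 11 fell, with a median of -0.35, and 11 fell with TMM factors as well. POLR1B, a subunit of RNA polymerase I, measured 156, 152, 151 and 174 CPM in solvent and 106, 102, 107 and 96.6 CPM at 6 h and fell by 0.62 (adjusted p = 1.23e-06). NOP56 and NOP58, of the box C/D particles that modify ribosomal RNA, fell (log2 fold changes of -0.52 and -0.50), and the nucleolar proteins NOLC1 and GNL3 fell (log2 fold changes of -0.49 and -0.44). Of the 16 cytosolic ribosomal protein genes, 0 were called, and their changes ranged from -0.09 to 0.14 (median 0.00, or 0.07 with TMM factors). NOP56, NOP58 and GNL3 host small nucleolar RNAs whose reads could be shared with them.

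Interferon-stimulated genes were lower in part. Of 17 tested, 0 rose and 5 fell, with a median of -0.26, beside 5.13% higher and 11.9% lower of all genes tested. OAS1, an antiviral enzyme, measured 17.7, 7.75, 18.8 and 22 CPM in solvent and 12.1, 4.70, 7.75 and 6.39 CPM at 6 h and fell by 1.11 (adjusted p = 0.00786). IFIT2, IFIT1 and IFIT3 fell (log2 fold changes of -1.07, -0.85 and -0.55). With TMM factors 3 fell, and without series 27-2 3 fell. The 3 IFIT genes overlap LIPA on the opposite strand.

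Of 24 tested keratin and squamous genes, 4 rose and 1 fell, beside 5.13% higher and 11.9% lower of all genes tested. The median was -0.10 (-0.02 with TMM factors). KRT14, a basal keratin, measured 376, 181, 468 and 429 CPM in solvent and 865, 437, 758 and 828 CPM at 6 h and rose by 1.03 ± 0.32 (adjusted p = 0.0239). KRT6A rose by 0.57 and KRT7 by 0.50, whereas KRT18 fell by 0.36. Keratin genes have close paralogs, so their counts are uncertain to the extent that reads were shared. With the series block 8 rose and 5 fell. Of 10 basal epithelial markers, 4 rose and 0 fell, including CDH3 (P-cadherin) with 0.38, and KRT5 had -0.09 ± 0.10 (adjusted p = 0.613). The luminal factor FOXA1 fell by 0.48. FAP, a fibroblast-activation protease, rose by 1.27 ± 0.22. Genes of sterol synthesis had values between -0.14 and 0.21 and 0 of 14 were called.

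Promoter letters were counted over the same 250-base window for all tested genes with a RefSeq start. The AP-1 letters TGANTCA occurred in 6.09% of 624 risen genes and in 10.5% of the 162 that rose by at least 1, against 3.36% of 1429 fallen genes, 5.88% of the 68 that fell by at least 1 and 4.4% of all 11690. CAGACA occurred in 11.1% of risen, 9.38% of fallen and 10.3% of all genes, and CACCTG in 17.1%, 15.1% and 16.6%. Among genes that rose by at least 1, CAGACA occurred in 12.3% and CACCTG in 22.2%, and among those that fell by at least 1, in 17.6% and 22.1%. GTCTAGAC was found in 0 risen, 3 fallen and 19 of all genes. These shares are descriptions without a test, and a match is not a binding site. The windows of IL11, IVL, DCLK1 and PLAUR, named risen genes averaging at least 5 CPM that hold TGANTCA, were chosen after the search and are shown with the match in capitals. IL11 lies at chr19:55370464-55370713, minus strand, IVL at chr1:152908296-152908545, plus strand, DCLK1 at chr13:36131940-36132189, minus strand and PLAUR at chr19:43670170-43670419, minus strand.
IL11: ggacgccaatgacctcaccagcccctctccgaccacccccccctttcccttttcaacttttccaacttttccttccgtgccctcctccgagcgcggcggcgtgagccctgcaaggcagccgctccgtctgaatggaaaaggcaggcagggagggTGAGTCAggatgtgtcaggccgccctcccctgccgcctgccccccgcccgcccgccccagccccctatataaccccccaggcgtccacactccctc
IVL: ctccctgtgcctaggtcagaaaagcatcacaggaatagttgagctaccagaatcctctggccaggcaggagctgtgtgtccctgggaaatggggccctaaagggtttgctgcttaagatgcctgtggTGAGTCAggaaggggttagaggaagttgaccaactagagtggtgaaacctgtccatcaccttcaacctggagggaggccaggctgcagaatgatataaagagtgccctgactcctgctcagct
DCLK1: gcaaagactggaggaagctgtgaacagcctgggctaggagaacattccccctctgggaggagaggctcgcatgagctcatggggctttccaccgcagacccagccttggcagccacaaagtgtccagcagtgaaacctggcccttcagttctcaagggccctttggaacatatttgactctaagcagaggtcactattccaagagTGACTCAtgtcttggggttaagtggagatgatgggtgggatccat
PLAUR: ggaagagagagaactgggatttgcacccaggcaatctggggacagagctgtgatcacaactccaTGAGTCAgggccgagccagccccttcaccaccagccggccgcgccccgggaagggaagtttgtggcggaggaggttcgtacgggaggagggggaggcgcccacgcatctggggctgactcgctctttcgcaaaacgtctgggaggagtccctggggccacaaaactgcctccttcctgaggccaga

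How far these calls rested on single libraries was examined by leaving out each of the 8 in turn. Of the 134 named genes with a call, 103 were called in each of these fits, among them JUNB, JUN and the 20 largest rises. The other 31 lost the call without at least 1 library while keeping their sign, the limma-voom adjusted p reaching at most 0.187. Among the largest falls these were EHF (5 of the 8 libraries, adjusted p up to 0.102), IL1RN (4, up to 0.183), TJP3 (2, up to 0.1) and MAPK4 (1, 0.0657). TGFB3 and LIF lost the call when any 1 of 7 libraries was left out, and ADAMTS1, IFIT1 and KRT18 when any 1 of 6 was. BHLHE41, GINS2 and MAF did so for 5, and FOXC1, GRHL3, KRT14, MMP2 and SMAD9 for 4. CDH3, FOXC2 and MCM10 did so for 3, and MCM6, MMP9 and PLAUR for 2. ADAMTS6, BMP1, IFIT3, KRT7, MAFF, OVOL2 and RRM2 each depended on 1 library, with adjusted p between 0.0504 and 0.092 without it. Leaving out the treated library 2-2 lowered the number of falls most, to 1118.

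The size of the response varied between the series. Over the genes that rose, the median log2 change was 0.46 in series 27-1, 0.47 in 27-2, 0.61 in 2-1 and 0.70 in 2-2. Over those that fell it was -0.31, -0.31, -0.33 and -0.44. The rise was larger in clone 2 than in clone 27 for 588 of the 762 risen genes, and the fall was larger in clone 2 for 1144 of the 1764 fallen genes. In a fit with the series as a block, the change differed between the clones for 437 genes, 2.94% of those tested (210 with the larger value in clone 2 and 227 with the smaller). Of these, 80 were among the risen and 77 among the fallen genes. Without the block 0 genes were called, and 1607 had an unadjusted p under 0.05.

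Some of the leading genes were among them. The ITGA2 changes of the 4 series were 0.86, 0.90, 1.57 and 1.87, and the clone difference was 0.84 ± 0.10 (clone 2 minus clone 27, limma-voom adjusted p = 0.00456). SOX4 differed by 0.59, SKIL by 0.89 and FN1 by 1.26 (adjusted p = 0.0152, 0.0051 and 0.00584). These 4 were picked after their values were seen. JUNB changed by 1.27, 0.99, 1.10 and 1.62, with a clone difference of 0.22 ± 0.14 (adjusted p = 0.412). With 2 replications of 1 clone on each side, this difference is one between these clones.

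The same contrast was then examined in the JUNB mut clones, whose libraries are separate from those used above. In those 8 libraries of mut cells 306 genes rose and 735 fell at 6 h, 2.06% and 4.94% of the genes tested. Of the WT rises 31.6% also rose in mut cells, and of the mut rises 78.8% also rose in WT cells. For falls these shares were 29.2% and 70.1%. A single gene, SPDL1, was called in opposite directions. The mut count was sensitive to single libraries, at 241 genes without the mut 6 h library 65-1, 272 without 65-2 and 1873 without 1-2, so the shares describe these libraries only. Among the 208 genes that rose by at least 1 in WT cells, 189 had a positive change in mut cells, with a median of 0.85 beside 1.56 in WT. These genes were chosen on the WT value. Chosen the other way, the 65 genes that rose by at least 1 in mut cells had a median of 1.48 in mut and 1.61 in WT cells, and all 65 were positive in WT.

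Among the 20 largest WT rises, 14 also rose in mut cells and all 20 had a positive value, 19 of them below the WT value. Among the 15 largest falls, 9 also fell in mut cells and all 15 were negative and smaller. These rises and falls were chosen as the extremes of the WT change, which by itself favours smaller values in mut cells. KANK4 rose by 5.27 ± 1.20 in mut cells beside 5.62 ± 0.83 in WT, and ALOX5AP by 2.70 ± 0.53 beside 2.56 ± 0.44. NEDD9 rose by 0.77 ± 0.24 beside 2.87 ± 0.47, and HMOX1 had 0.57 ± 0.39 beside 2.29 ± 0.39. None of these 4 differences passed the test of the interaction (adjusted p = 0.999, 0.999, 0.194 and 0.618). In mut cells the JUNB transcript rose by 1.39 ± 0.33, which was 0.15 ± 0.47 from the WT change (interaction adjusted p = 0.999), so its count does not check the genotype labels.

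**Figure D3:**
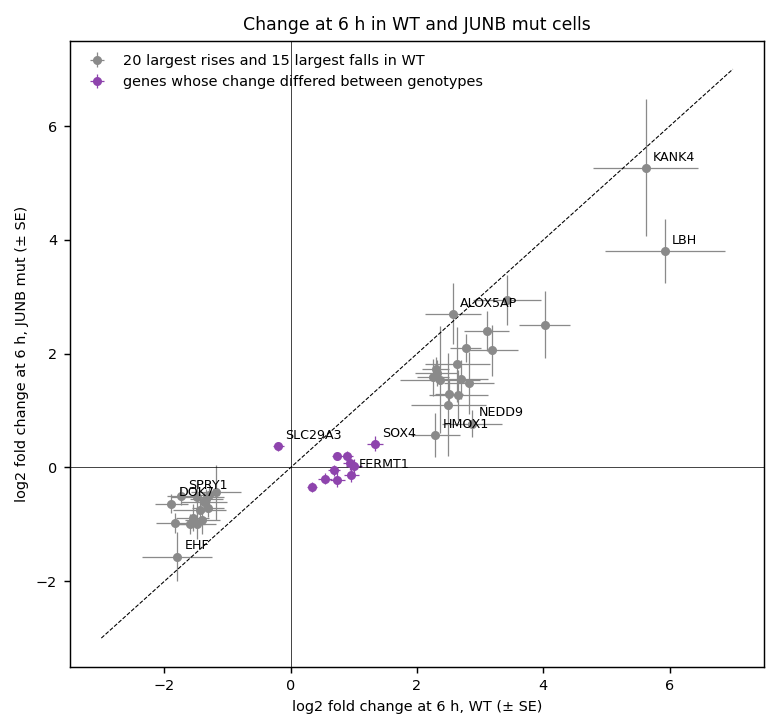
Log2 fold change at 6 h in WT (horizontal) and JUNB mut cells (vertical) with SE bars for the 20 largest WT rises and 15 largest WT falls (grey) and the genes with a called interaction (purple); the dashed line marks equal changes. Grey points, which were chosen on the WT value, lie mostly between 0 and the line, and 10 of the purple points lie below the line.

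The interaction, in which the WT change is subtracted from that of mut cells, was called for 11 genes, 0.0740% of those tested, while 764 had an unadjusted p under 0.05. For 10 of them the value was lower in mut cells, and all 10 rose in WT cells. FERMT1 (kindlin-1), an integrin activator, measured 141, 151, 145 and 129 CPM in solvent and 200.3, 242, 327 and 360.0 CPM at 6 h in WT. In mut clones (series 1-1, 1-2, 65-1 and 65-2) it measured 95.3, 121, 97.7 and 99.3 CPM in solvent and 98.1, 98.8, 86.9 and 91.3 CPM at 6 h. It rose in WT and was not called in mut cells, the interaction being -1.09 ± 0.17 (adjusted p = 0.00485). IVNS1ABP, a Kelch protein, measured 197, 185, 221 and 140.3 CPM in solvent and 314, 309, 426 and 432 CPM at 6 h in WT and 183, 196, 208 and 167 CPM in solvent and 217, 167, 216 and 168 CPM at 6 h in mut cells. Its interaction was -0.97 ± 0.18 (adjusted p = 0.0261). SOX4 measured 35.8, 49.2, 36.7 and 35.7 CPM in solvent and 56.5, 46.6, 54.1 and 50.9 CPM at 6 h in mut cells, a change of 0.42 ± 0.13 (adjusted p = 0.0559) that lay -0.91 from the WT change (interaction adjusted p = 0.0425).

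INPP4B, a phosphoinositide phosphatase, rose by 0.74 in WT and had -0.22 in mut cells, and MOB3B had 0.93 and 0.08. FAM83A, which acts in EGF receptor signalling, had 0.69 and -0.05, and BPGM (bisphosphoglycerate mutase) 0.89 and 0.20. SGK1, a serum- and glucocorticoid-regulated kinase, measured 75.1 ± 5.72 CPM in WT solvent and 109 ± 9.19 CPM at 6 h, and 159.6 ± 17.1 and 139 ± 17.6 CPM in mut cells (SD, n = 4 each). Its solvent level was thus already higher in mut cells than the treated level of WT. IGF1R had 0.73 and 0.21, and SPDL1, a mitotic spindle protein, rose by 0.34 in WT and had -0.35 in mut cells (adjusted p = 0.0165).

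SLC29A3, a nucleoside transporter, was the only one with the higher value in mut cells, -0.20 in WT (adjusted p = 0.103) and 0.37 in mut. The 11 genes kept their sign in each alternative tried, but the calls depended on single libraries, 1 of the 11 being called without the WT 6 h library 2-1, the WT solvent library 2-2, the mut 6 h library 65-2 or the mut solvent library 1-2, and 0 in sums per clone. With the series block all 11 were called among 46.

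The later times share the solvent libraries and are given side by side without a test. Of the 20 largest rises at 6 h, 16 peaked in their mean at 24 h and 2 at 72 h, while RDH16 and IVL had their highest mean at 6 h. RDH16 was highest at 6 h in every series. IVL was higher at 24 h than at 6 h in 27-1 and 27-2 (85.7 and 19.4 against 71.3 and 17.8 CPM). In 2-1 and 2-2 IVL was lower at 24 h (27.0 and 12.5 against 52.0 and 23.1 CPM). RDH16 averaged 1.27, 14.5, 11.2 and 4.15 CPM in solvent, then 6, 24 and 72 h, in that order, and IVL 7.87, 41.1, 36.1 and 24.5 CPM. PMEPA1 averaged 84.2, 537, 909 and 900.1 CPM, and JUNB 97.6, 233, 271 and 169 CPM. TGFBI averaged 1204, 4173, 11317 and 13972 CPM and MMP9 3.92, 9.78, 53.8 and 35.4 CPM. Of the 15 largest falls, 8 had their lowest mean at 72 h, 6 at 24 h and MAPK4 alone at 6 h. MAPK4 averaged 3.11, 3.60 and 3.37 CPM at 6, 24 and 72 h, and only series 27-1 was lowest at 6 h. Series 27-2 was lowest at 72 h (1.42 against 2.05 CPM at 6 h). Series 2-1 and 2-2 were lowest at 24 h (2.49 and 1.73 against 3.14 and 2.55 CPM at 6 h). RRM2 averaged 153, 103, 59.1 and 139.9 CPM, lowest at 24 h, and SPRY1 8.52, 2.67, 1.46 and 1.07 CPM. ADAMTS1 averaged 2.23, 0.987, 3.08 and 9.53 CPM, the 6 h value being the lowest of the 4.

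**Figure D4:**
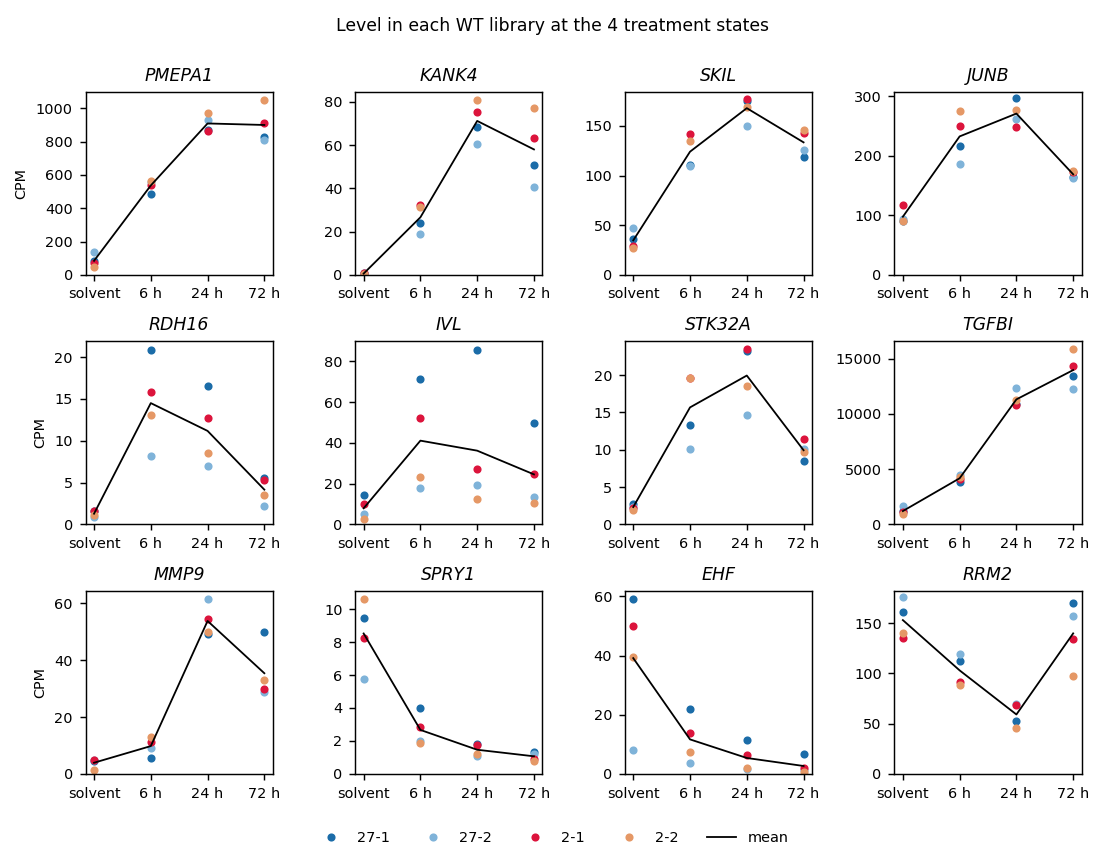
Level (CPM) of 12 genes in each WT library in solvent and after 6, 24 and 72 h of TGFβ1 at 5 ng/ml, with the mean of the 4 libraries as a line; the categories on the horizontal axis are not spaced by time. The mean of RDH16 and of IVL is highest at 6 h, that of JUNB at 24 h and that of TGFBI at 72 h.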

How the data were processed

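RNA was measured in 32 libraries, of which the 8 of WT solvent and WT TGFβ1 6 h make the comparison described above. The authors made libraries with a TruSeq RNA v2 kit, sequenced both ends on a NovaSeq, trimmed with Trimmomatic and aligned with STAR to GRCh38 with Ensembl genes. The counter's strand setting and the tool versions are not given in the sources used here. The deposited values are raw counts per gene for 17788 genes, as the authors' counting gave them, with 0 columns of per-sample values left unused. In 30 sets, 61 rows were identical to another row. Of the identifiers 17598 were given a symbol by GENCODE 44, and 47 of 151 named genes overlap another gene of the table. No pair of libraries of 1 group agreed within sampling noise (smallest chi-square per degree of freedom 11.6).

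Genes were kept by edgeR's filterByExpr (edgeR 4.0.16, minimum count 10, minimum total 15), leaving 14865. The test was limma-voom (limma 3.58.1, R 4.3.3) on counts scaled by library size, fitted over all 32 libraries in 8 groups, with Benjamini-Hochberg adjustment over all genes tested and a threshold of 0.05. CPM are counts divided by the library total, with 3 counts as the floor, and the CPM of a single library is given without an interval. The scripts were tested on simulated data. This main test had no term for the series, so its p-values and SE are unpaired. Only the fits with the series as a block used pairs of solvent and treated libraries with the same clone and replication. These were taken as pairs because the labels give the same clone and the deviations of each pair from the group means correlated (r = 0.43, 0.66, 0.36 and 0.26 for 27-1, 27-2, 2-1 and 2-2, against -0.42 to 0.24 for other pairings).

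Named genes are JUNB, the 20 largest rises and 15 largest falls among called genes with a mean of at least 5 CPM and 1 sign in all series, up to 5 called members per list with a mean of at least 1 CPM, 13 EMT-related genes, the genes with a called interaction, and 6 with a clone difference. A few genes that the rule takes in are not reported here. Apart from marker genes of the cell type check, genes outside the rule are marked as picked after their values were seen or as named to complete a count. The members of the comparison and the gene lists were chosen with earlier results of these data known. Alternatives were TMM factors, edgeR's quasi-likelihood test, DESeq2 1.42.0, testing without a filter or only genes averaging 50 counts or more (12417), the 8 libraries alone, the series block, sums per clone and leave-outs. The alternatives for the mut contrast were added after the data were seen. Promoter sequences come from RefSeq.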

Additional observations from a re-analysis of the deposited data

Results flagged for a closer look

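In 21 of 299 groups of 4 libraries looked at, 1 library lay apart from the other 3 by Dixon's ratio (its gap to the nearest library over the group's range, against the 95% critical value). Chance alone gives about 1 in 20 groups. Of the 21, 11 were libraries of series 27-2. In solvent, 27-2 was high for SMAD7 (ratio 0.896), SNAI1 (0.941) and ZEB1 (0.933), and low for SLC27A2 (0.835) and PLLP (0.836). At 6 h it was high for POSTN (0.889, 62.0 against 1.73 to 2.56 CPM) and ALOX5AP (0.879), and low for CDH1 (0.917, 199 against 403 to 429 CPM), IQGAP2 (0.835), BMP1 (0.848) and FOXA1 (0.904).

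The treated 27-1 library was high for TGFBR3 (0.918) and OVOL2 (0.889) and low for SCG5 (0.903), ZEB2 (0.893) and FAM83A (0.923), and its solvent library was high for FOXA1 (0.84). The solvent 2-2 library was low for WNT9A (0.906) and MMP9 (0.931). Series 2-1 was low for CDC6 in solvent (0.925) and high for TNS1 at 6 h (0.972).

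The 6 h change differed between mut and WT cells for 11 genes by the limma-voom interaction (mut minus WT, log2). The values were -1.09 for FERMT1, -0.97 for IVNS1ABP, -0.96 for INPP4B, -0.91 for SOX4, -0.86 for MOB3B, -0.74 for FAM83A, -0.74 for SGK1, -0.70 for BPGM, -0.69 for SPDL1, -0.52 for IGF1R and 0.57 for SLC29A3.

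Between the WT clones (clone 2 minus clone 27, series block) the change differed by -5.45 for PCDHB2, 5.07 for B3GNT8, 2.54 for MYOM3, 2.51 for MMP10, 1.72 for SCG5 and 1.64 for SERPINB2. Over both clones together PCDHB2, a protocadherin, had -1.62 ± 1.26 (adjusted p = 0.429), and MMP10, a stromelysin, 1.63 ± 0.59 (adjusted p = 0.057), both by limma-voom. MMP10 was called as higher with the series block (adjusted p = 0.00334), with TMM factors, by DESeq2 and by both quasi-likelihood fits of edgeR. Of the clone differences, 0 were called without the series block.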

How the results depend on the processing

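The count of DEGs at 6 h in WT cells (2526) was 3844 with the series as a replicate block, 1470 in sums per clone, 1640 in a fit of the 8 libraries alone and 311 with a log2 change of at least 1, and 1727 to 2424 when 1 library was left out. The 762 rises became 1223 with DESeq2, 1157 with the block, 1599 with the block and TMM factors and 208 at a change of at least 1, and lay between 571 and 748 when 1 library was left out. The 1764 falls became 936 with DESeq2, 919 with TMM factors, 884 in the quasi-likelihood test with TMM factors, 2687 with the block, 936 in sums per clone, 1089 with the 8 libraries alone and 103 at a change of at least 1, and lay between 1118 and 1705 when 1 library was left out.

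The 11 interactions became 46 with DESeq2, 17 in the quasi-likelihood test with TMM factors, 46 with the block, 45 with the block and TMM factors, 0 in sums per clone, 1 at a difference of at least 1 and 1 to 19 without 1 library. The mut count (1041) became 2453 with the block, 1950 with the block and TMM factors, 200 in sums per clone and 241 to 1873 without 1 library. The 437 clone differences became 0 without a replicate block (1607 at an unadjusted p under 0.05).

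The sign turned for ZEB1 (-0.0089 in the quasi-likelihood test with library sizes, -0.0079 with the block, -0.0114 with the block on the 8 libraries alone, -0.2052 to 0.2404 without 1 library), CDH1 (-0.0006 in sums per clone, -0.1695 to 0.2952 without 1 library), CXCL1 (-0.0611 to 0.2688 without 1 library, the lowest without the solvent library 2-2) and PCDHB2 (0.67 with DESeq2, 0.67 and 0.60 in the quasi-likelihood test with TMM factors and library sizes, 0.37 with the block on the 8 libraries alone). The causes were not tested. Among the 151 named genes, 9 lost and 2 gained a call with TMM factors, 13 and 3 with DESeq2, 27 and 1 with the 8 libraries alone, 12 and 0 in sums per clone, and 8 and 2 without series 27-2. The block took 0 calls and added 9. Depth limits genes near the floor of 0.0575 to 0.0756 CPM, where folds such as those of LBH and KANK4 are imprecise.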
